A study of Homo sapiens with 31 samples.

Results

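The 10 transcripts described here encode proteins that build ribosomes in the nucleolus: the scaffolds NPM1 and NCL, the box C/D proteins FBL, NOP56 and NOP58, the box H/ACA proteins DKC1, NHP2, GAR1 and NOP10, and the large-subunit assembly factor RRS1. They are 10 of 227264 Ensembl transcripts listed in each library, and were picked by transcript identifier with a check of the deposited length against that of the protein. The identifiers are ENST00000296930 (NPM1), ENST00000322723 (NCL), ENST00000221801 (FBL), ENST00000329276 (NOP56), ENST00000264279 (NOP58), ENST00000369550 (DKC1), ENST00000274606 (NHP2), ENST00000226796 (GAR1), ENST00000328848 (NOP10) and ENST00000320270 (RRS1). In GRCh38.p14, RefSeq places these genes at chr5:171387116-171410900, chr2:231453531-231464484, chr19:39834458-39846379, chr20:2652632-2658393, chr2:202265763-202303661, chrX:154762864-154777689, chr5:178149463-178153885, chr4:109815510-109824737, chr15:34341719-34343136 and chr8:66429014-66430733, in that order. All 10 passed: the length in each case was 9 below the number of amino acids, and is read here as the number of codons counted, although its unit is not stated. Another transcript had counts equal to those of NPM1 in every library, as another had those of GAR1, so for these genes the value belongs to a pair of transcripts. NPM1 also has processed pseudogenes, and how reads shared with such copies were counted is not given in the sources used here.

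The libraries came from HEK293 T-REx cells, an established human embryonic kidney line that carries the tetracycline repressor. Ribosome profiling, which sequences the mRNA fragments covered by ribosomes, was done on naive, EIF4A1 KO and EIF4A2 KO cells. Each genotype had 2 libraries with DMSO, the solvent control, and 1 library each with 1 µM and 10 µM PP242, an inhibitor of the mTOR kinase, given for 30 min. The mRNA of naive cells and of cells without EIF4A1 was sequenced with no drug named (2 libraries each). In the pulldowns, cells expressed eIF4A1 or eIF4A2 fused to SBP, a peptide tag that binds streptavidin, and the RNA held on streptavidin beads was sequenced beside the input (2 libraries of each kind for each fusion). SBP-eIF4A1 cells were also transfected for 72 h with control siRNA (siControl: 2 inputs, 2 pulldowns) or LARP1 siRNA (siLARP1: 2 inputs, 1 pulldown). No pulldown from cells without a fusion was analysed here, so RNA that sticks to the beads by itself is not subtracted. The labels give neither the number of knockout clones nor the promoter of the fusions, and the genotypes and the knockdown rest on the labels. Titles write "replicate" for naive and EIF4A1 KO profiling and SBP-eIF4A1, and "rep" for EIF4A2 KO profiling, SBP-eIF4A2 and RNA-seq. Whether these sets of libraries were made together is not in the labels. A difference of EIF4A2 KO or SBP-eIF4A2 from its counterpart cannot be told apart from one between the sets.

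Ribosomal RNA is transcribed, modified and folded into pre-ribosomal particles in the nucleolus. Small nucleolar RNAs guide its modification: box C/D particles carry out 2′-O-methylation through the methyltransferase FBL, with NOP56 and NOP58 as its paired core proteins, and box H/ACA particles convert uridine to pseudouridine through DKC1, held with NHP2, GAR1 and NOP10. NPM1 and NCL are abundant RNA-binding proteins that organise the nucleolus, and RRS1 helps to load 5S RNA onto the large subunit. Ribosome production is costly and is controlled by mTORC1, the kinase complex that PP242 blocks. Part of that control acts on translation: mRNAs that begin with a C and an unbroken run of pyrimidines, called TOP mRNAs, are bound near the cap by LARP1 when mTORC1 is inactive. The eIF4A proteins are RNA helicases that prepare mRNAs for the scanning ribosome.

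Since a TOP start is defined by the first bases of the mRNA, annotated start sites of some members are shown, picked with their PP242 values known. GAR1, NOP10 and the other annotated start of NPM1 also have windows, which are not printed, so the lines are no measure of how start and response match. Each line gives the 10 bases before the start and the 20 bases from it onward, 5′ to 3′ on the transcribed strand, and the capitals mark the unbroken pyrimidine run that begins at the start itself.
NPM1: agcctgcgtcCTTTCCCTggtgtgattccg
FBL: cgcctgcgctCTTTTCCacgtgcgaaagcc
NHP2: gatgacctggaagtgatgcctaaagctgtg
NCL: ctttcgcctcagtctcgagctctcgctggc
NOP56: cgctagccgcattgcgagccgaacccggga
DKC1: gtgcgcgggtgggtgggtcctagcagcgcg
The windows are from RefSeq (GRCh38.p14): chr5:171387839-171387868 on the plus strand for NPM1, chr19:39846360-39846389 on the minus strand for FBL, chr5:178153866-178153895 on the minus strand for NHP2, chr2:231464465-231464494 on the minus strand for NCL, chr20:2652622-2652651 on the plus strand for NOP56, and chrX:154762854-154762883 on the plus strand for DKC1. A start of C followed by at least 4 bases that are each C or T, looked for on the transcribed strand at the first base alone, was present at 1429 of 35116 annotated starts (4.07%). Of the 8 members with a window, NPM1 (a run of 8, at 1 of its 2 annotated starts) and FBL (a run of 7) had it. The other NPM1 start, and the starts of NCL, NOP56, DKC1, NHP2, GAR1 and NOP10, did not have these letters at the annotated base. An annotated start can differ from the start used in these cells, and the windows describe the annotation.

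The 12 ribosome profiling libraries held 2514867 to 6419106 counts, after reduction to 1 transcript per locus, the 4 RNA-seq libraries 19695689 to 21619174, the 8 pulldown and input libraries without siRNA 12621161 to 17630956, and the 7 siRNA libraries 11883114 to 16771931. The lowest count of a member was 95 in ribosome profiling (RRS1) and 32 in the pulldowns (GAR1), so values of RRS1 and GAR1 are the least precise. Replicates spread unevenly: the chi-square per degree of freedom between the 2 libraries of a group was 1.25 to 2.09 in RNA-seq, profiling and most pulldown groups, 6.47 in the SBP-eIF4A2 pulldown and 6.25 to 12.7 in the siRNA groups. Levels are in CPM, a transcript's share of the library's counts after TMM scaling, which sets the typical transcript to no change, so a log2 change is relative to that transcript. With library totals and no scaling factor, the median of all transcripts tested would stand at 0.16 after PP242 in naive cells, 0.15 without EIF4A1 and 0.17 without EIF4A2, and at 0.54 in the siControl pulldown. A transcript is called at an edgeR adjusted p under 0.05, and "±" after a log2 change is its standard error. Shares of all transcripts called cover every depth that passed the filter and are not matched to the members' counts.

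In naive cells the members covered a wide range of mRNA levels. Compared per 1000 counted codons, NPM1 had the highest RNA level, with 8804 and 9029 CPM in the 2 RNA-seq libraries. FBL followed at 1845 and 2039, NHP2 at 1513 and 1588, NOP56 at 1399 and 1411, NCL at 727 and 728, and NOP10 at 447 and 456. NOP58 (367 and 380), DKC1 (336 and 343), RRS1 (61.9 and 64.2) and GAR1 (34.3 and 36.5) stood below them. No neighbours in this order overlapped between libraries.

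The order of the footprints was different. Per 1000 codons of footprints with DMSO, NPM1 led again (8658 and 9537 CPM) and FBL was next (2710 and 2862), but NCL came next (2144 and 2192) and NOP10 (1686 and 1763) stood level with NHP2 (1715 and 1730), their libraries overlapping. DKC1 (512 and 528.7), NOP58 (494 and 496), NOP56 (451 and 474), GAR1 (381 and 401) and RRS1 (141 and 165) came below. NOP56, the fourth by RNA, was thus the eighth by footprints.

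**Figure D1:**
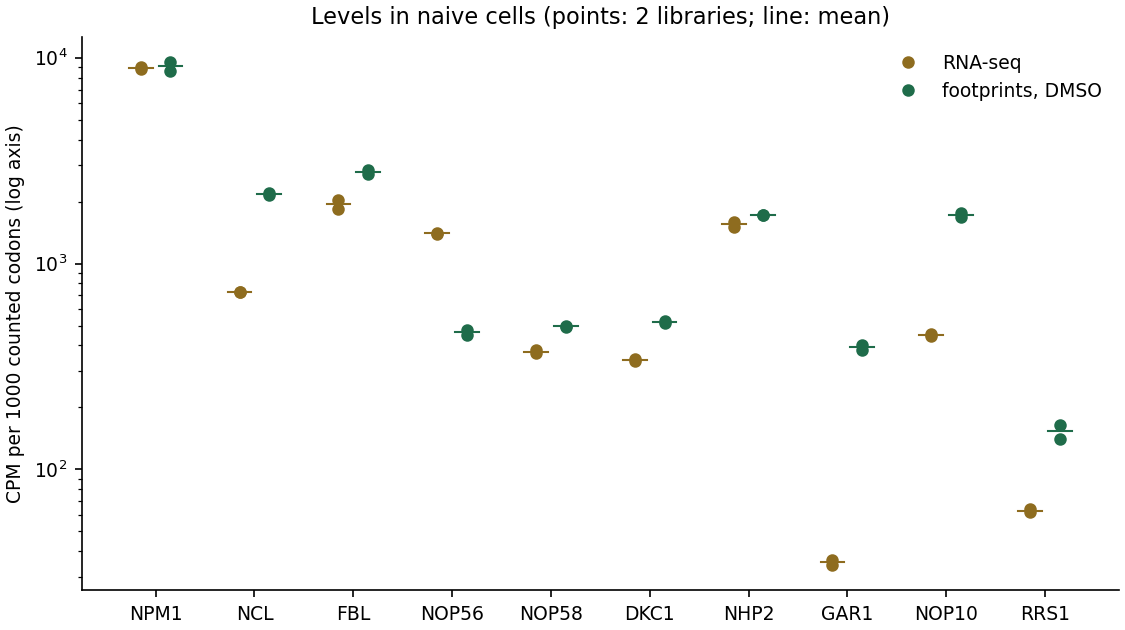
RNA and footprint levels of the 10 members in naive cells, in CPM per 1000 counted codons on a log axis; each point is 1 library and each line the mean of 2. NPM1 has a mean of 8916 by RNA and 9098 by footprints, whereas GAR1 lies near 35.4 by RNA and near 391 by footprints, and NOP56 is the member whose footprint level is below its RNA level by the widest gap.

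The ratio of footprints to RNA, the translation efficiency, set 2 of the H/ACA proteins and NOP56 at opposite ends. On the log2 scale relative to the median of 18429 transcripts with at least 10 counts, GAR1 stood at 3.41 (percentile 99.5), NOP10 at 1.88 (96.3), NCL at 1.52 (93.9) and RRS1 at 1.23 (90.4). NOP56, which shares the core of the box C/D particle with NOP58, stood at -1.66 (percentile 4.03), while NOP58 itself was at 0.35 (66.2). The other members lay near the middle: DKC1 at 0.56, FBL at 0.47, NHP2 at 0.10 and NPM1 at -0.02. For GAR1 the 4 possible pairs of a footprint library with an RNA library gave log2 ratios of 3.28 to 3.44, and for NOP56 -1.75 to -1.67, so neither member's value rested on a single pair. The ratio compares libraries made by different methods, and GAR1 rests on few RNA counts (7.14 and 7.58 CPM). In EIF4A1 KO cells, NOP56 kept its low place at -1.64 (percentile 4.72) and GAR1 its high place at 2.94 (99.1). NHP2 stood at -0.29 and RRS1 at 0.61 there, against 0.10 and 1.23 in naive cells.

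Without EIF4A1, the mRNAs of NPM1, NOP56, NHP2 and NOP10 were lower and that of DKC1 was slightly higher. These 5 of 10 members were called, where 36.5% of the 25675 transcripts tested by RNA-seq were called (18.1% higher, 18.5% lower). Their log2 changes stood at percentiles 16.5 (NPM1), 17.4 (NHP2), 22.4 (NOP10), 34.1 (NOP56) and 62.8 (DKC1) of all transcripts tested. NPM1 had 2573 and 2509 CPM in naive and 1904 and 1920 CPM in EIF4A1 KO libraries, a log2 change of -0.41 ± 0.025 (adjusted p = 1.21e-14). NHP2, which binds the guide RNA in the H/ACA particle, had 218 and 229 CPM in naive and 171 and 169 CPM in EIF4A1 KO libraries, a log2 change of -0.39 ± 0.039 (adjusted p = 8.58e-10). The libraries of NPM1 and NHP2 did not overlap between genotypes. Nor did those of NOP56, DKC1 and NOP10, or of NCL and GAR1, which were not called. The share of all transcripts without overlap was not counted. In bulk samples such as these, fewer cells that express a transcript and less of it per expressing cell cannot be told apart.

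NOP10, the smallest H/ACA protein, fell by 0.30 ± 0.084 on the log2 scale (adjusted p = 0.00495), from 25.1 and 24.6 CPM to 19.9 and 20.4 CPM. NOP56 fell by 0.15 ± 0.029 (adjusted p = 8.07e-05), from 819 and 825 CPM to 737 and 742 CPM. DKC1, the pseudouridine synthase, rose by 0.11 ± 0.040 (adjusted p = 0.0237), from 173 and 169 CPM to 182 and 188 CPM. So within the H/ACA particle the mRNAs of the catalytic subunit and of its 2 small partners NHP2 and NOP10 moved in opposite directions, and GAR1 stood at 0.32 ± 0.13, short of the threshold (adjusted p = 0.0506). NCL (-0.04), FBL (-0.06), NOP58 (-0.03) and RRS1 (0.09) were not called. The median of the 10 members was -0.05, and of all transcripts tested -0.003. DKC1 and NOP10 were not called by DESeq2's Wald test (adjusted p 0.11 and 0.0707), nor DKC1 without naive RNA-seq replicate 2 or EIF4A1 KO replicate 2, nor NOP10 without EIF4A1 KO replicate 1. FBL was called lower without naive RNA-seq replicate 1, and GAR1 was called higher with DESeq2's size factors (adjusted p = 0.0498). GAR1 was also called higher with library totals (edgeR adjusted p = 0.0465), no filter (0.0482) and all distinct transcripts (0.0469). By DESeq2's Wald test GAR1 was not called (adjusted p = 0.287).

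In footprints, NHP2 was the member most reduced by the loss of EIF4A1, NPM1, RRS1 and FBL were lower too, and NCL was higher. These 5 of 10 compare with 22.8% of 19799 transcripts called (10.9% higher, 11.9% lower). Their log2 changes stood at percentiles 9.0 (NHP2), 17.73 (RRS1), 17.75 (NPM1), 36.1 (FBL) and 64.9 (NCL) of all transcripts tested. NHP2 had 249 and 247 CPM in the naive DMSO libraries and 141 and 156 CPM in those of EIF4A1 KO cells, a log2 change of -0.74 ± 0.077 (adjusted p = 4.41e-15). NPM1 had 2718 and 2468 CPM in naive and 1835 and 1889 CPM in EIF4A1 KO libraries, a log2 change of -0.48 ± 0.050 (adjusted p = 9.47e-15). Neither member's libraries overlapped between these genotypes. Nor did those of NCL, FBL and RRS1, or of NOP56, NOP58 and GAR1, which were not called. The share of all transcripts without overlap was not counted.

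RRS1 had 50.2 and 58.7 CPM in naive and 39.2 and 39.3 CPM in EIF4A1 KO libraries, a log2 change of -0.48 ± 0.13 (adjusted p = 0.00383). FBL fell by 0.18 ± 0.055 (adjusted p = 0.0109), and NCL rose by 0.15 ± 0.051 (adjusted p = 0.0163) from 1536 and 1503 CPM to 1710 and 1673 CPM. The other 5 members were between -0.11 (GAR1) and 0.007 (DKC1). The median of the members was -0.10, against -0.01 for all transcripts tested. FBL, NCL and RRS1 were less firm than NPM1 and NHP2: without naive DMSO replicate 2 none of these 3 was called, without EIF4A1 KO DMSO replicate 1 NCL and RRS1 were not, without its replicate 2 FBL was not, and by DESeq2's Wald test FBL (adjusted p 0.0545) and RRS1 (0.064) were not. FBL was also not called with library totals (adjusted p 0.0572).

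**Figure D2:**
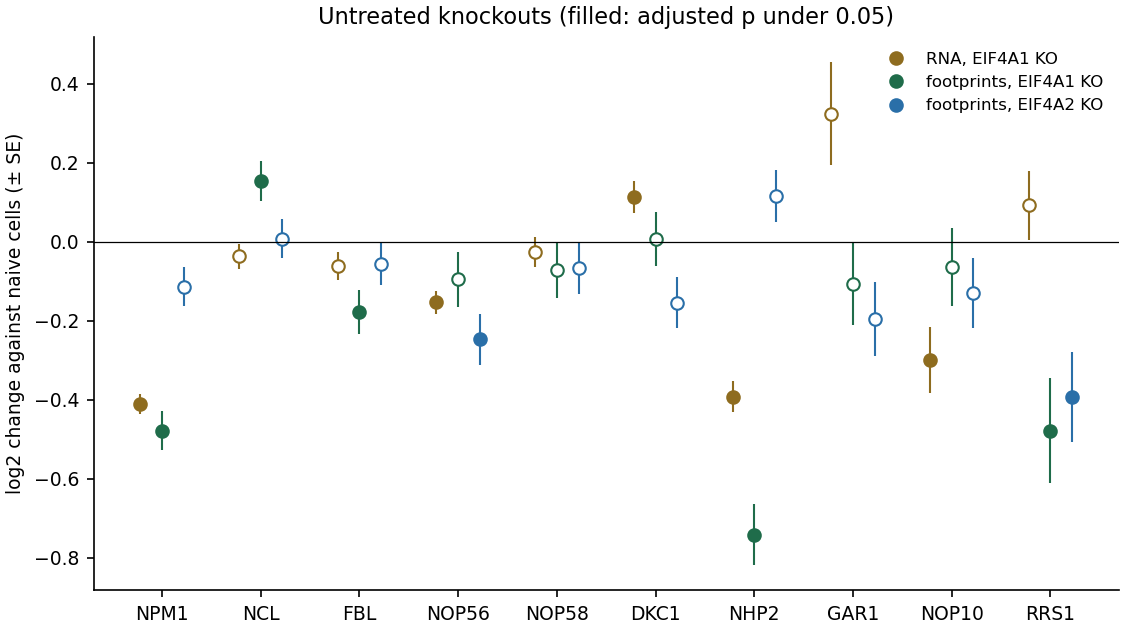
Log2 change (± SE) of each member in untreated knockout cells against naive cells, for RNA and footprints of EIF4A1 KO and footprints of EIF4A2 KO; filled points have an adjusted p under 0.05. NPM1 falls by a like amount in RNA (-0.41) and footprints (-0.48) of EIF4A1 KO cells, NHP2 falls further in footprints (-0.74) than in RNA (-0.39), and neither is called in EIF4A2 KO cells with all libraries in the fit.

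The change of translation efficiency, tested in 1 model over both assays, was called for 2 members, NHP2 and RRS1, where 9.69% of 25392 transcripts were called (3.27% higher, 6.42% lower). NHP2 footprints fell beyond its mRNA by 0.38 ± 0.085 on the log2 scale (adjusted p = 0.000587), and those of RRS1 by 0.61 ± 0.16 (adjusted p = 0.00413). For NPM1 the difference was -0.10 ± 0.056 and was not called (adjusted p = 0.293). GAR1 stood at -0.47 ± 0.16 (adjusted p = 0.0508) and NCL at 0.16 ± 0.058 (adjusted p = 0.0707), both just short of the threshold. NCL passed it with DESeq2's size factors (0.20, adjusted p = 0.0138). It did so too with library totals, by DESeq2's Wald test, with no filter and with all distinct transcripts. With the replicate number as a block NCL was not called. The call of RRS1 was lost without naive DMSO replicate 2, where NPM1 was called lower (-0.19, adjusted p = 0.00744), and without EIF4A1 KO RNA-seq replicate 1. FBL was called lower without naive DMSO replicate 1 or naive RNA-seq replicate 2, and NCL higher without either naive RNA-seq library. The median of the members was -0.12 and of all transcripts tested -0.06.

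Loss of EIF4A2 left 8 of 10 members uncalled, with 8.09% of all transcripts called (3.76% higher, 4.33% lower), and NOP56 and RRS1 were lower. NOP56 had 264 and 277 CPM in naive and 228 and 228 CPM in EIF4A2 KO DMSO libraries, a log2 change of -0.25 ± 0.065 (adjusted p = 0.00518). RRS1 had 43.8 and 39.5 CPM in EIF4A2 KO libraries, against 50.2 and 58.7 CPM in naive, a log2 change of -0.39 ± 0.11 (adjusted p = 0.0138). NPM1 (-0.11, adjusted p = 0.152) and NHP2 (0.12, adjusted p = 0.315) were not called. DESeq2's Wald test called neither NOP56 (adjusted p 0.0551) nor RRS1 (0.218). Both calls were lost without naive DMSO replicate 2, where NPM1 was called lower instead (-0.19, adjusted p = 0.0251), and that of RRS1 without EIF4A2 KO DMSO replicate 2. The naive DMSO libraries are shared by both knockout comparisons, and the difference between the knockouts was not tested. Titles of naive and EIF4A2 KO libraries differ in style, so genotype and set of libraries cannot be told apart.

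PP242 lowered the footprints of NPM1 in all 3 genotypes, those of FBL in all 3 as well but near the threshold in EIF4A1 KO cells, those of NHP2 in naive and EIF4A2 KO cells, and those of NCL in EIF4A1 KO cells. NPM1, the member with the largest response in each genotype, had 2718 and 2468 CPM with DMSO in naive cells, 1672 at 1 µM and 1732 at 10 µM. Without EIF4A1, NPM1 had 1835 and 1889 CPM with DMSO, 1192 with the lower and 1235 with the higher dose, and without EIF4A2 2318 and 2471 CPM with DMSO, 1354 at the lower and 1494 at the higher dose. Every PP242 library was thus below every DMSO library of its genotype, and 10 µM gave no lower value than 1 µM in any genotype.

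With either dose against DMSO (2 libraries against 2), the log2 change of NPM1 was -0.61 ± 0.058 in naive cells (adjusted p = 1.41e-13), -0.62 ± 0.059 without EIF4A1 (adjusted p = 1.89e-13) and -0.75 ± 0.058 without EIF4A2 (adjusted p = 1.15e-17). Whether an annotated start with a C and a pyrimidine run, which NPM1 and FBL have, goes with the response was not tested. FBL had 846 and 893 CPM with DMSO in naive cells and 734 and 714 CPM with PP242. Its log2 change was -0.26 ± 0.059 in naive cells (adjusted p = 0.0011), -0.20 ± 0.061 without EIF4A1 (adjusted p = 0.0338) and -0.35 ± 0.059 without EIF4A2 (adjusted p = 6.86e-06).

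**Figure D3:**
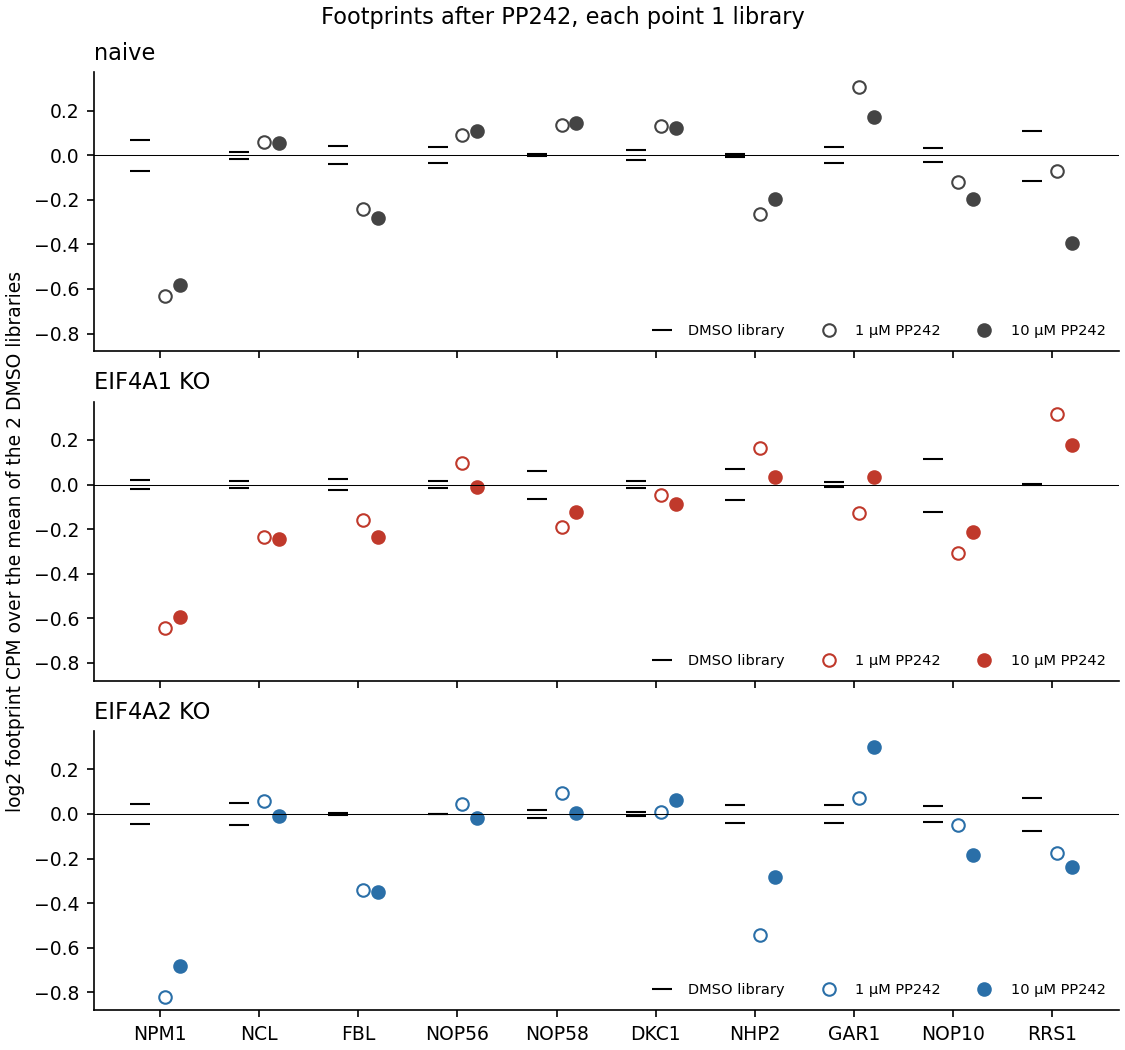
Footprints of each member after 1 µM (open) and 10 µM (filled) PP242 as log2 over the mean of the 2 DMSO libraries (dashes) of the same genotype; each point is 1 library. NPM1 lies between -0.58 and -0.82 in all 3 genotypes, NCL lies near -0.24 at both doses in EIF4A1 KO cells and between -0.01 and 0.06 in the others, and NHP2 is below its DMSO libraries in naive and EIF4A2 KO cells and not in EIF4A1 KO cells.

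NHP2 had 249 and 247 CPM with DMSO in naive cells, 206 at 1 µM and 216 at 10 µM (log2 change -0.23 ± 0.075, adjusted p = 0.0349). In EIF4A2 KO cells it had 276 and 261 CPM with DMSO, 185 and 221 at the rising doses (-0.40 ± 0.073, adjusted p = 2.33e-05). Without EIF4A1, where NHP2 was already low with DMSO at 141 and 156 CPM, it had 166 at 1 µM and 152 at 10 µM, and the libraries overlapped (0.10 ± 0.086, adjusted p = 0.604). The annotated start of NHP2 has no pyrimidine at its first base.

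In EIF4A1 KO cells NCL had 1710 and 1673 CPM with DMSO and 1437 and 1430 CPM with PP242, a log2 change of -0.24 ± 0.057 (adjusted p = 0.0032). In naive cells it had 1536 and 1503 CPM with DMSO and 1583 and 1580 CPM with PP242 (0.06 ± 0.056, adjusted p = 0.625), and in EIF4A2 KO cells the libraries overlapped (0.02 ± 0.056, adjusted p = 0.851). With PP242, NCL of EIF4A1 KO cells was thus below the level of naive cells, and with DMSO above it.

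Thus 3 of 10 members were called in each genotype, each of them lower. Of all 20457 transcripts, 9.39% were called in naive cells (3.68% higher, 5.71% lower), 6.05% without EIF4A1 (2.34% higher, 3.71% lower) and 11.8% without EIF4A2 (4.66% higher, 7.11% lower). With 1 library left out these shares fell to between 4.02% (without the naive 1 µM library) and 6.75% in naive cells, to between 2.06% (without EIF4A1 KO DMSO replicate 1) and 4.74% without EIF4A1, and to between 6.8% and 8.19% without EIF4A2. The core proteins NOP56, NOP58, DKC1, GAR1 and NOP10, and RRS1, were not called in any genotype. In naive cells NOP56 (0.10), NOP58 (0.14), DKC1 (0.13) and GAR1 (0.25) had both PP242 libraries above both DMSO libraries, and NOP10 (-0.16) had both below. NOP10 had both below in EIF4A1 KO (-0.26) and EIF4A2 KO cells (-0.12) too. Of the 10 members, 4 had both below, 5 both above and 1 overlapped in naive cells. These counts were 6, 1 and 3 in EIF4A1 KO and 5, 2 and 3 in EIF4A2 KO cells. Such separation was not counted over all transcripts. The medians of the 10 members were -0.05, -0.11 and -0.05 in naive, EIF4A1 KO and EIF4A2 KO cells, against 0.005, 0.008 and 0.01 for all transcripts.

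The scaling decided how many members were called. With library totals, NPM1 was still lower in naive cells (-0.45, adjusted p = 1.7e-09), without EIF4A1 (-0.48) and without EIF4A2 (-0.59). FBL in naive (-0.10, adjusted p = 0.241) and EIF4A1 KO cells, NHP2 in naive cells (-0.07) and NCL in EIF4A1 KO cells (-0.10, adjusted p = 0.298) were then not called, and NCL, NOP56, NOP58, DKC1 and GAR1 were called higher in naive cells. In EIF4A2 KO cells NCL (0.18), NOP58 (0.205), DKC1 (0.19) and GAR1 (0.35) were then called higher as well. A slope over dose steps of 0, 1 and 2 called no member in naive or EIF4A1 KO cells (NPM1 adjusted p 0.111 and 0.195), and NPM1 in EIF4A2 KO cells. The call of NHP2 in naive cells was lost without any single naive library, by DESeq2's Wald test and with 10 µM alone. That of FBL in naive cells was lost without naive DMSO replicate 2, and that of NCL in EIF4A1 KO cells without its DMSO replicate 1. The call of FBL in EIF4A1 KO cells was lost without any single library of that genotype, with no filter (adjusted p = 0.054), with all distinct transcripts (adjusted p = 0.0502) and with 1 µM alone (-0.16, adjusted p = 0.165).

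The responses were then compared between genotypes. For NPM1 the response of EIF4A1 KO cells differed from that of naive cells by -0.01 ± 0.083 (adjusted p = 0.972) and from that of EIF4A2 KO cells by 0.13 ± 0.083 (adjusted p = 0.405), and neither difference was called. NCL responded differently in EIF4A1 KO cells, by -0.30 ± 0.080 against naive cells (adjusted p = 0.0123) and by -0.26 ± 0.080 against EIF4A2 KO cells (adjusted p = 0.0305). The response of NHP2 was less negative without EIF4A1 than without EIF4A2, by 0.50 ± 0.11 (adjusted p = 0.00197). Against naive cells that difference was 0.33 ± 0.11 and was not called (adjusted p = 0.0718). With no filter on low counts NHP2 was called higher against naive cells too.

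NCL was the 1 member called against naive cells, where 6.08% of transcripts were (3.62% higher, 2.46% lower). NCL and NHP2 were the 2 called against EIF4A2 KO cells, where 6.24% were (3.7% higher, 2.54% lower). Both contrasts use the same EIF4A1 KO libraries. In the contrast with EIF4A2 KO cells, genotype and set of libraries cannot be told apart. Without EIF4A1 KO DMSO replicate 1 neither NCL nor NHP2 was called in either contrast, and the call of NCL against naive cells was also lost without naive DMSO replicate 2. Against EIF4A2 KO cells, neither was called with 10 µM alone (NCL -0.23, adjusted p = 0.133; NHP2 0.32, adjusted p = 0.155) or without the EIF4A2 KO library at 1 µM. NCL was not called in that contrast without EIF4A1 KO DMSO replicate 2, either EIF4A1 KO PP242 library or EIF4A2 KO DMSO replicate 1. NOP58 (-0.29, adjusted p = 0.0705), the member whose footprints were most like those of NCL, was not called against naive cells.

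Footprints of some members moved alike across the 12 profiling libraries. After centring within each genotype, the log2 CPM of NPM1 and FBL had a Pearson r of 0.945, that of NCL and NOP58 0.756, NOP10 and FBL 0.737, DKC1 and NOP58 0.712, GAR1 and DKC1 0.699, and NHP2 and FBL 0.692. The closest member to RRS1 was NHP2 (0.577), and to NOP56 DKC1 (0.528). The paired core proteins NOP56 and NOP58 were thus not each other's closest members. These values describe libraries that share the PP242 contrast and the scaling, and carry no test.

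In the pulldowns, NOP56 mRNA was the member most enriched with either eIF4A protein, and NCL mRNA the most depleted. NOP56 had 446 and 444 CPM in the SBP-eIF4A1 inputs and 2000 and 1980 CPM in the pulldowns, which is 4.47-fold (log2 2.16 ± 0.052, adjusted p = 2.25e-14). With SBP-eIF4A2 it had 655 and 627 CPM in the inputs and 2467 and 2596 CPM in the pulldowns, 3.95-fold (log2 1.98 ± 0.051, adjusted p = 2.54e-14). Among all transcripts tested these values stood at percentiles 98.8 and 98.0. Its partner NOP58 was at -0.20 ± 0.066 with SBP-eIF4A1 (adjusted p = 0.0147) and -0.07 ± 0.063 with SBP-eIF4A2 (adjusted p = 0.351), so the 2 paired proteins' mRNAs were captured unequally.

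NCL had 646 and 647 CPM in the SBP-eIF4A1 inputs and 180 and 190 CPM in the pulldowns (log2 -1.80 ± 0.058, adjusted p = 2.71e-13). With SBP-eIF4A2 it had 688 and 660 CPM in the inputs and 160 and 173 CPM in the pulldowns (-2.02 ± 0.057, adjusted p = 5.06e-14). NPM1 was depleted as well, from 2271 and 2444 CPM to 1238 and 1312 CPM with SBP-eIF4A1 (-0.89 ± 0.053, adjusted p = 3.5e-10) and from 1953 and 2029 CPM to 650 and 665 CPM with SBP-eIF4A2 (-1.60 ± 0.054, adjusted p = 3.77e-13). Both nucleolar scaffolds thus had every pulldown library below every input library. The same held for NOP58, DKC1 and GAR1, and the share of all transcripts with this separation was not counted.

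The H/ACA mRNAs were split. NOP10 was enriched, from 26.3 and 26.8 CPM to 60.0 and 65.3 CPM with SBP-eIF4A1 (log2 1.24 ± 0.082, adjusted p = 1.18e-09) and from 29.9 and 29.0 CPM to 47.2 and 46.8 CPM with SBP-eIF4A2 (0.67 ± 0.079, adjusted p = 1.19e-06). DKC1 (-0.68 and -0.55) and GAR1 (-1.16 and -1.07) were depleted with both proteins, and the values of GAR1 rest on few counts, 2.81 and 2.85 CPM in the SBP-eIF4A1 pulldowns. NHP2 was enriched with SBP-eIF4A1 (0.36 ± 0.064, adjusted p = 0.000155) and depleted with SBP-eIF4A2 (-0.48 ± 0.065, adjusted p = 6.73e-06).

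FBL stood at 0.03 ± 0.053 with SBP-eIF4A1 (adjusted p = 0.691) and at -0.53 ± 0.053 with SBP-eIF4A2 (adjusted p = 1.95e-07). RRS1 was enriched with SBP-eIF4A1 (0.44 ± 0.13, adjusted p = 0.0078) and not called with SBP-eIF4A2 (0.09 ± 0.12). With SBP-eIF4A1, 9 of 10 members were called, 4 higher and 5 lower, where 55.4% of 26527 transcripts were called (28.8% higher, 26.6% lower). With SBP-eIF4A2, 8 were called, 2 higher and 6 lower, where 59.8% were (29.8% higher, 30% lower). The calls of NOP58 and RRS1 with SBP-eIF4A1 were lost without input replicate 2 or pulldown replicate 1, and that of RRS1 also without input replicate 1. With SBP-eIF4A2, both NOP58 and RRS1 were called once pulldown replicate 1 was left out.

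**Figure D4:**
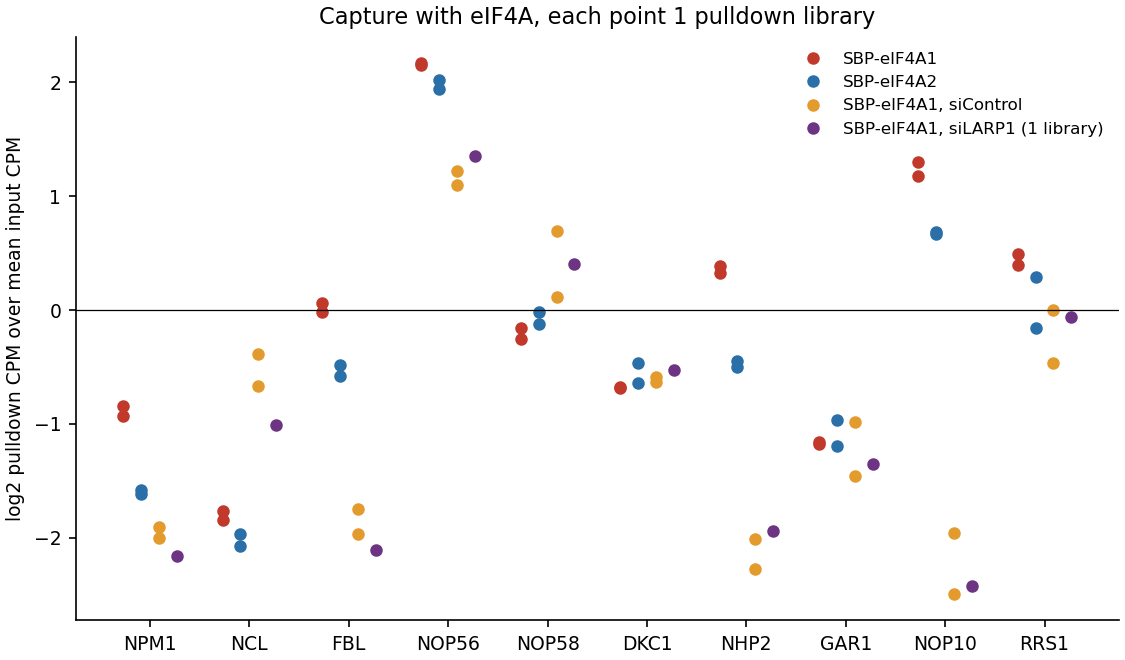
Capture of each member's mRNA with the eIF4A fusions, as log2 of pulldown CPM over the mean CPM of the 2 inputs; each point is 1 pulldown library, and siLARP1 has 1. NOP56 lies above 1 in every library, the NHP2 libraries lie above 0 with SBP-eIF4A1 and below 0 with SBP-eIF4A2, and NOP10, above 1 with SBP-eIF4A1, lies near or below -1.96 in the siRNA experiment.

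Set against each other, the 2 fusions differed for 4 members, each captured more with SBP-eIF4A1, where 15.7% of transcripts differed (10.4% higher, 5.3% lower with SBP-eIF4A1). The log2 differences of enrichment were 0.83 ± 0.091 for NHP2 (adjusted p = 1e-05), 0.71 ± 0.075 for NPM1 (adjusted p = 7.1e-06), 0.56 ± 0.075 for FBL (adjusted p = 7.67e-05) and 0.56 ± 0.11 for NOP10 (adjusted p = 0.0025). For these 4 the libraries of the fusions did not overlap in their log2 over mean input. The same held for NCL, NOP56, NOP58, DKC1 and RRS1, which were not called, so the separation does not mark the called members. Its share over all transcripts was not counted. NOP56 (0.18, adjusted p = 0.103) and NCL (0.21, adjusted p = 0.0861), the members at the extremes of capture, were not called. The median of the members was 0.28, against 0.03 for all transcripts. The titles of the 2 fusions' libraries differ in style, so fusion and set of libraries cannot be told apart.

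This contrast depends on scaling in part. With library totals, where the median of all transcripts moved to -0.28, NHP2, NPM1 and FBL were called in the same direction, NOP10 was not (0.25, adjusted p = 0.134), and NOP58 (-0.45) and DKC1 (-0.44) were called lower with SBP-eIF4A1. The split over all transcripts was then 963 higher and 4775 lower, in place of 2762 and 1406. Without SBP-eIF4A2 pulldown replicate 2, 7 members were called, each higher with SBP-eIF4A1: NCL, NOP56 and RRS1 beside the 4. Without its replicate 1, 5 were called, the 4 higher and DKC1 lower (-0.21, adjusted p = 0.0365). The share of all transcripts called ran from 8.65% without SBP-eIF4A1 input replicate 1 to 28.7% without SBP-eIF4A2 pulldown replicate 1.

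In siControl cells the capture of several members by SBP-eIF4A1 was unlike that without siRNA. NOP56 was still enriched, from 923 and 1016 CPM in the inputs to 2069 and 2266 CPM in the pulldowns (log2 1.16 ± 0.17, adjusted p = 5.72e-07). Among all transcripts tested in the siRNA experiment, this value stood at percentile 81.85. NOP10, which was enriched without siRNA, was depleted here, from 79.9 and 95.1 CPM to 15.6 and 22.5 CPM (-2.20 ± 0.21, adjusted p = 1.84e-10). NHP2 was depleted likewise, from 300 and 311 CPM to 75.6 and 62.9 CPM (-2.14 ± 0.19, adjusted p = 2.86e-11).

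NPM1 (-1.95 ± 0.17) and FBL (-1.85 ± 0.18) were also depleted, as were GAR1 (-1.21), DKC1 (-0.61) and NCL (-0.52 ± 0.17, adjusted p = 0.014). NOP58 stood at 0.43 ± 0.19 (adjusted p = 0.0588) and RRS1 at -0.22. In all, 8 of 10 members were called, 1 higher and 7 lower, where 49.2% of 26635 transcripts were called (25.2% higher, 23.9% lower). With library totals NCL (-0.06) and DKC1 (-0.15) were not called and NOP58 was called higher (0.89, adjusted p = 0.00069). NCL was also not called without input replicate 2 or pulldown replicate 1, and NOP58 was called, higher, with the replicate number as a block (adjusted p = 0.0284), with no filter (adjusted p = 0.0361) and without pulldown replicate 1.

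A test of this difference was added after these values were seen, over the 8 SBP-eIF4A1 libraries with siControl and with no siRNA. It called 8 of 10 members, where 50.2% of 26044 transcripts were called (26.5% higher, 23.8% lower). Capture was lower with siControl for NOP10 (-3.38 ± 0.22, adjusted p = 2.55e-08), NHP2 (-2.44 ± 0.16, adjusted p = 2.93e-08), FBL (-1.82 ± 0.14), NPM1 (-1.01 ± 0.14), NOP56 (-0.94 ± 0.13) and RRS1 (-0.60 ± 0.23, adjusted p = 0.039). It was higher for NCL (1.34 ± 0.15) and NOP58 (0.70 ± 0.22, adjusted p = 0.0153). Capture here is pulldown over input, and the inputs differed as well, in CPM scaled within each experiment. Mean NOP56 input was 445 CPM with no siRNA and 969 with siControl, and its mean pulldown 1990 and 2168. So the pulldown level of NOP56 was not lower with siControl. For NOP10 the inputs had 26.6 and 87.5 CPM and the pulldowns 62.7 and 19.0. For NCL these were 646 and 1399, and 185 and 977.

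DKC1 (0.12) and GAR1 (0.01) were not called in that test. With library totals the median of all transcripts moved from 0.10 to 0.62, RRS1 was not called (-0.08) and DKC1 was called higher (0.65). RRS1 and NOP58 were the least firm: RRS1 was not called by DESeq2's Wald test or without 6 of the 8 libraries taken singly, and NOP58 not without 3 of them. The 2 experiments differ in transfection and may differ in other ways, which cannot be told apart.

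LARP1 siRNA was compared with siControl in the inputs, where no member was called by edgeR. Of 26635 transcripts 0.39% were called (0.274% higher, 0.116% lower), 104 in all, and 3201 had an unadjusted p under 0.05. NPM1 had 4116 and 4654 CPM in the siControl and 2667 and 2942 CPM in the siLARP1 inputs, a log2 change of -0.65 ± 0.16 (adjusted p = 0.0634). FBL had 847 and 784 CPM in siControl and 618 and 545 CPM in siLARP1 inputs (-0.49 ± 0.17, adjusted p = 0.207). NHP2 had 300 and 311 CPM against 233 and 194 CPM (-0.52 ± 0.18, adjusted p = 0.194), and NOP10 79.9 and 95.1 CPM against 57.1 and 68.9 CPM (-0.47 ± 0.20, adjusted p = 0.318). For these 4 the siLARP1 inputs lay below the siControl inputs, as they did for NOP56, DKC1 and GAR1. By log2 change 9 of 10 members, RRS1 excepted, were below 0, with a median of -0.23 against 0.03 for all transcripts. How many of all transcripts had such inputs or a change below 0 was not counted.

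With library totals NCL (0.11), NOP58 (0.06) and DKC1 (0.02) stood above 0 as well. NPM1 was called lower with DESeq2's size factors (adjusted p = 0.0428), with no filter, with all distinct transcripts and by DESeq2's Wald test, which also called FBL (-0.52, adjusted p = 0.0498). NHP2, at -0.55 in that test, was not called (adjusted p = 0.0543). The siLARP1 inputs were the group with the largest spread between replicates.

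The change of SBP-eIF4A1 capture after LARP1 siRNA rests on 1 siLARP1 pulldown library, which is assumed to vary like the other groups. The edgeR test called no transcript (0%), with 838 at an unadjusted p under 0.05; DESeq2's Wald test called 0 as well. The log2 differences of the members ran from -0.49 ± 0.28 for NCL to 0.20 ± 0.29 for NHP2, with a median of -0.08 against -0.07 for all transcripts. NOP56 had 825 and 802 CPM in the siLARP1 inputs and 2080 CPM in the pulldown, so it stood at 1.35 over the mean input, against 1.09 and 1.23 in the siControl pulldowns. The difference for NOP56 was 0.19 ± 0.26 and was not called.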

How the data were processed

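The authors deposited, per library, whole-number counts per Ensembl transcript, and beside them a length for each transcript. The unit of that length and the counting tool are not given in the sources used here; STAR 2.7.0a, CASAVA 1.8 and hg38 are named, with no role, in the submitters' processing notes. A read can count in several transcripts, so 94734 transcripts with a count were reduced to 77343 distinct ones and then to 1 transcript per locus (35424): members were kept first, and others, by total count, were dropped at a correlation of log2 CPM (pseudocount 0.5) of at least 0.9 with a kept transcript within 10 distinct rows. These were tested with edgeR 4.0.16 in R 4.3.3 (TMM, filterByExpr with minimum count 10 and minimum total count 15, glmQLFTest, two-sided, Benjamini-Hochberg over all transcripts of the fit). The standard error is the size of the log2 change divided by the square root of F. PP242 libraries of both doses formed 1 treated group. All 10 members passed the filter in every fit. DESeq2 1.42.0 was an alternative. The fits were tested on simulated data.

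The members were named by the rule that each appears in every comparison, and no other transcript is named; likeness between members is Pearson's r of centred log2 CPM. Members, lists and tests were chosen with earlier results of these data known. The files pair no other transcript with a gene, so wider pathway lists, marker genes of the cell line and the levels of EIF4A1, EIF4A2 and LARP1 were not analysed here. The labels do not say whether replicates came from separate cultures, so p-values measure the spread between libraries, which may be technical. Replicate numbers were not treated as pairs: the labels tie them to nothing shared, and deviations of same-numbered libraries correlated at -0.067 to 0.034, except 0.212 for siControl inputs and pulldowns.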

Additional observations from a re-analysis of the deposited data

Results flagged for a closer look

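Results are listed here where the effect of the same contrast differed between groups by a test of the difference itself. No group held the 4 libraries that a check for an outlying library needs. The PP242 response of NCL footprints differed in EIF4A1 KO cells by -0.297 (log2) against naive and by -0.264 against EIF4A2 KO cells, and that of NHP2 by 0.499 against EIF4A2 KO cells. Capture with SBP-eIF4A1 exceeded that with SBP-eIF4A2 by 0.713 for NPM1, 0.557 for FBL, 0.834 for NHP2 and 0.564 for NOP10. Capture with SBP-eIF4A1 in siControl cells differed from that with no siRNA by -3.38 for NOP10, -2.44 for NHP2, -1.82 for FBL, -1.01 for NPM1, -0.942 for NOP56, -0.601 for RRS1, 0.697 for NOP58 and 1.34 for NCL, in a test added after the values were seen.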

How the results depend on the processing

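Of 1110 values of single members under other settings, 1014 kept direction and call, 34 lost the call, 32 gained it, 30 changed sign while uncalled and 0 reversed; of 860 with 1 library left out these were 752, 50, 15, 43 and 0. The causes were not tested. DESeq2's Wald test called 3 members for RNA and 3 for footprints of EIF4A1 KO, 0 for footprints of EIF4A2 KO, and 2 for siLARP1 inputs. Library totals, an alternative added after the data were seen, called 6, 1 and 7 members after PP242 in naive, EIF4A1 KO and EIF4A2 KO cells, and 2 for the response of EIF4A1 KO against naive cells. The dose slope called 0, 0 and 1 in the genotypes and 0 and 0 in the response contrasts. With no filter 2 members were called in the response against naive cells and 1 in siLARP1 inputs; 1 µM alone gave 2 against naive, and 10 µM alone 0 against EIF4A2 KO cells. DESeq2's size factors and all distinct transcripts each called 1 member in siLARP1 inputs.

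Leaving out 1 library gave 2 to 5 members for EIF4A1 KO footprints, 1 to 2 for EIF4A2 KO footprints, 1 to 4 for translation efficiency, 1 to 2 for PP242 in naive and 1 to 2 in EIF4A1 KO cells, 0 to 2 in each response contrast, and 4 to 7 for the fusions' difference. The replicate block gave 5 members for RNA, 5 and 2 for EIF4A1 KO and EIF4A2 KO footprints, 2 for translation efficiency, 9, 8 and 4 for the pulldowns and their difference, 9 for siControl capture, 8 for siControl against no siRNA and 0 for siLARP1 inputs, and changed no other call than NOP58 in siControl capture. No paired analysis was possible for PP242, whose libraries carry no number, or for capture after siLARP1 because the lone pulldown has none; the block fits of the siRNA experiment leave that library out. A group left with 1 library was assumed to vary like the other groups.

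Over all transcripts, calls for EIF4A1 KO RNA were 9381, 5441 by DESeq2's Wald test and 26611 with all distinct transcripts; for EIF4A1 KO footprints 4509, 2210 and 13443; for EIF4A2 KO footprints 1602, 523 and 4696. After PP242 they were 1921, 1237 and 2407 by genotype, 290, 0 and 448 with the dose slope, and 3432, 1856 and 3967 with library totals, whose split in naive cells was 2768 higher and 664 lower in place of 752 and 1169, in EIF4A1 KO cells 1522 and 334 in place of 478 and 759, and in EIF4A2 KO cells 3108 and 859 in place of 953 and 1454. DESeq2's Wald test gave 1133, 741 and 1458 calls after PP242, all distinct transcripts 6342, 3739 and 7791, and 10 µM alone 947 and 817 in naive and EIF4A1 KO cells. The response contrasts, with 1244 and 1276 calls, had 684 and 752 by DESeq2's Wald test, 2 and 1 with the dose slope, 3684 and 3762 with all distinct transcripts and 528 and 620 with 10 µM alone. All distinct transcripts also raised translation efficiency from 2460 to 7223, the pulldowns and their difference from 14693, 15863 and 4168 to 42029, 44799 and 13212, siControl capture from 13098 to 37604 and siControl against no siRNA from 13084 to 36861. With library totals the higher and lower calls were 1229 and 1192 in place of 830 and 1630 for translation efficiency, 9863 and 6283 in place of 7902 and 7961 with SBP-eIF4A2, 10676 and 3601 in place of 6723 and 6375 for siControl capture, 10661 and 3533 in place of 6891 and 6193 against no siRNA, and 206 and 5 in place of 73 and 31 for siLARP1 inputs. For siLARP1 inputs the 104 calls became 164 with DESeq2's size factors, 211 with library totals, 369 by DESeq2's Wald test, 411 with no filter, 618 with all distinct transcripts, 23 with the block, 22 with the 2 groups alone, and 11 to 137 with 1 library left out. For capture after siLARP1 the count ran from 0 to 7 with 1 library left out. Depth limits RRS1 and GAR1 most, the members with the lowest counts.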
